A study of Canis lupus familiaris with 7 samples.

Results

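The metalloproteinases that cut extracellular matrix and shed proteins from the cell surface, together with their tissue inhibitors, were described in canine osteosarcoma (OSA) and non-tumor bone. Members were every gene of the expression table whose symbol starts with MMP, with TIMP or ADAM followed by a digit, or with ADAMTS, which gave 67 of the 24580 genes listed. The symbols included *MMP3*, *MMP-12* (written *MMP12* here) and the ADAMTS-like genes, while *ADAMDEC1*, which has the same start but no digit, was left out. The samples were 4 pieces of grossly non-malignant bone taken beside a tumor (N1, N3, N8 and N9) and 3 pieces of histologically diagnosed OSA (T1, T3 and T10), taken from dogs at amputation or after euthanasia. Sex, age and treatment of the dogs were not given in the labels used here, and the protocol calls the tumor and adjacent bone matched, but no label says whether a shared number (N1 and T1, N3 and T3) marks a dog. The samples were therefore compared unpaired, p-values measure the spread between these samples, and calls that change with the number as a block are named. Values are FPKM, fragments scaled to transcript length and to the number of mapped fragments, so levels of different genes can be set side by side.

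Matrix metalloproteinases (MMPs) are zinc-dependent enzymes made as inactive precursors. Collagenases cut the triple helix of fibrillar collagen, gelatinases digest the unwound chains, stromelysins cut proteoglycans, fibronectin and other MMP precursors, and membrane type MMPs act at the cell surface, where MMP14 activates the precursor of MMP2 with TIMP2 as an adaptor. The tissue inhibitors of metalloproteinases (TIMPs) block the active site. ADAM proteins are mostly membrane-bound and many of them shed growth factors, cytokines and receptors, while the secreted ADAMTS proteins include aggrecanases, which degrade the aggrecan of cartilage, and enzymes that trim procollagen. Bone remodelling and growth plate cartilage rely on several of these enzymes, MMP13, MMP9 and MMP14 among them.

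Depth was known only in relative terms, because the table holds FPKM and no counts. Read from the steps between low values, it ran from 0.936 (T1) to 1.45 (T10) times that of N1 in N3 and the tumor samples. It was 0.547 times in N8 and 0.66 times in N9, where the steps leave a factor of 2 undecided. One non-tumor sample stood apart from its group. Across the 13507 genes tested, the correlation of log2(FPKM + 1) was 0.917 between N1 and T1 and 0.55 to 0.812 in all other pairs of samples, and across the 48 members tested N1 and T1 correlated at 0.904, a description across genes that are not independent replicates. N1 lay nearer to the mean of the tumor samples than to that of the other non-tumor samples in 34 of 48 members (70.8%) and in 65.1% of all genes tested. T1 was the single sample nearest to N1 in 18 of 48 members (37.5%), compared to 41.2% of all genes tested. N1 was the highest non-tumor sample and T1 at the same time the highest tumor sample in 24 of 48 members (50%), compared to 18.4% of all genes tested. Whether N1 and T1 come from the same dog, or whether N1 holds tumor tissue, cannot be told from the labels and was not tested. Results were therefore also computed without N1 and without both N1 and T1.

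Marker lists of the cell types that a piece of bone can hold differed between samples as well. Their counts of genes that passed are to be read beside 3.28% of all genes tested that rose and 3.58% that fell, against which 1 gene of a short list is no more than a single gene. As mean log2(FPKM + 1) over each list, skeletal muscle was at 2.15 to 11 in non-tumor and 0.47 to 0.70 in OSA tumor samples, and 11 of its 13 tested genes fell. The erythroid list ranged from 1.05 to 7.84 in non-tumor and 0.58 to 2.25 in tumor samples (8 of 13 fell), and the granulocyte list from 3.86 to 9.76 and 1.19 to 3.88 (7 of 10 fell). Endothelial genes were at 3.20 to 4.74 and 1.42 to 3.5 (4 of 9 fell), macrophage genes at 2.54 to 5.88 and 3.91 to 4.29 (0 of 9 passed), and osteoclast genes at 2.76 to 4.98 and 2.36 to 5.82 (0 of 9 passed). The osteoblast list was at 1.90 to 5.91 in non-tumor and 3.78 to 7.33 in tumor samples (1 of 10 rose), the chondrocyte list at 0.42 to 3.89 and 3.02 to 6.34 (3 of 7 rose), and the fibroblast list at 3.79 to 5.90 and 4.81 to 6.93 (1 of 8 rose). Osteoblast markers were present in both groups. In these bulk pieces, fewer cells of a type and less RNA per cell cannot be told apart, and the part of these cell types in the results below was not tested.

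Of the 67 members, 48 reached a mean of 1 FPKM over the 7 samples and were tested. Both group means were at least 1 FPKM in 41 of them, while 5 members (*ADAMTS8*, *ADAMTS19*, *ADAMTS20*, *MMP25* and *TIMP4*) reached the limit through the non-tumor samples alone and 2 (*ADAMTS12* and *MMP20*) through the tumor samples alone. With limma on log2(FPKM + 1), a gene was taken as changed where its fold change reached 2 and its unadjusted p was under 0.05. Under these limits *MMP3*, *MMP12*, *MMP14*, *MMP2* and *ADAMTS6* rose in OSA tumor (5 of 48), compared to 3.28% of all genes tested. A single member, *MMP8*, fell (1 of 48), compared to 3.58% of all genes. Taken in either direction, 6 of 48 members passed, beside 6.86% of all genes. After Benjamini-Hochberg adjustment over all genes no member remained, and the smallest adjusted p of any gene was 0.693 by limma, with 927 genes at an unadjusted p under 0.05. The median log2 fold change was 0.73 over the 48 members and -0.02 over all genes tested. Of the members 31 lay above 0, beside 6561 of all 13507 genes tested. Both values include the members that reached the limit through 1 group alone, whose signs follow in part from the filter.

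The groups did not overlap in 5 of 48 members, beside 5.85% of all genes tested. Every tumor sample lay above every non-tumor sample in *MMP3*, *MMP12* and *ADAMTS5*, where the background was 3.04%, and below in *MMP8* and *ADAMTS20*, where it was 2.81%. *ADAMTS20* was tested only because of its non-tumor level, so its direction follows in part from the filter and it does not stand as support. In the other 4 members the two-sided exact permutation test over all 35 assignments of samples to groups gave p = 0.0571. The test doubles the smaller tail, so with 4 against 3 samples this is its smallest value and it cannot reach 0.05.

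**Figure D1:**
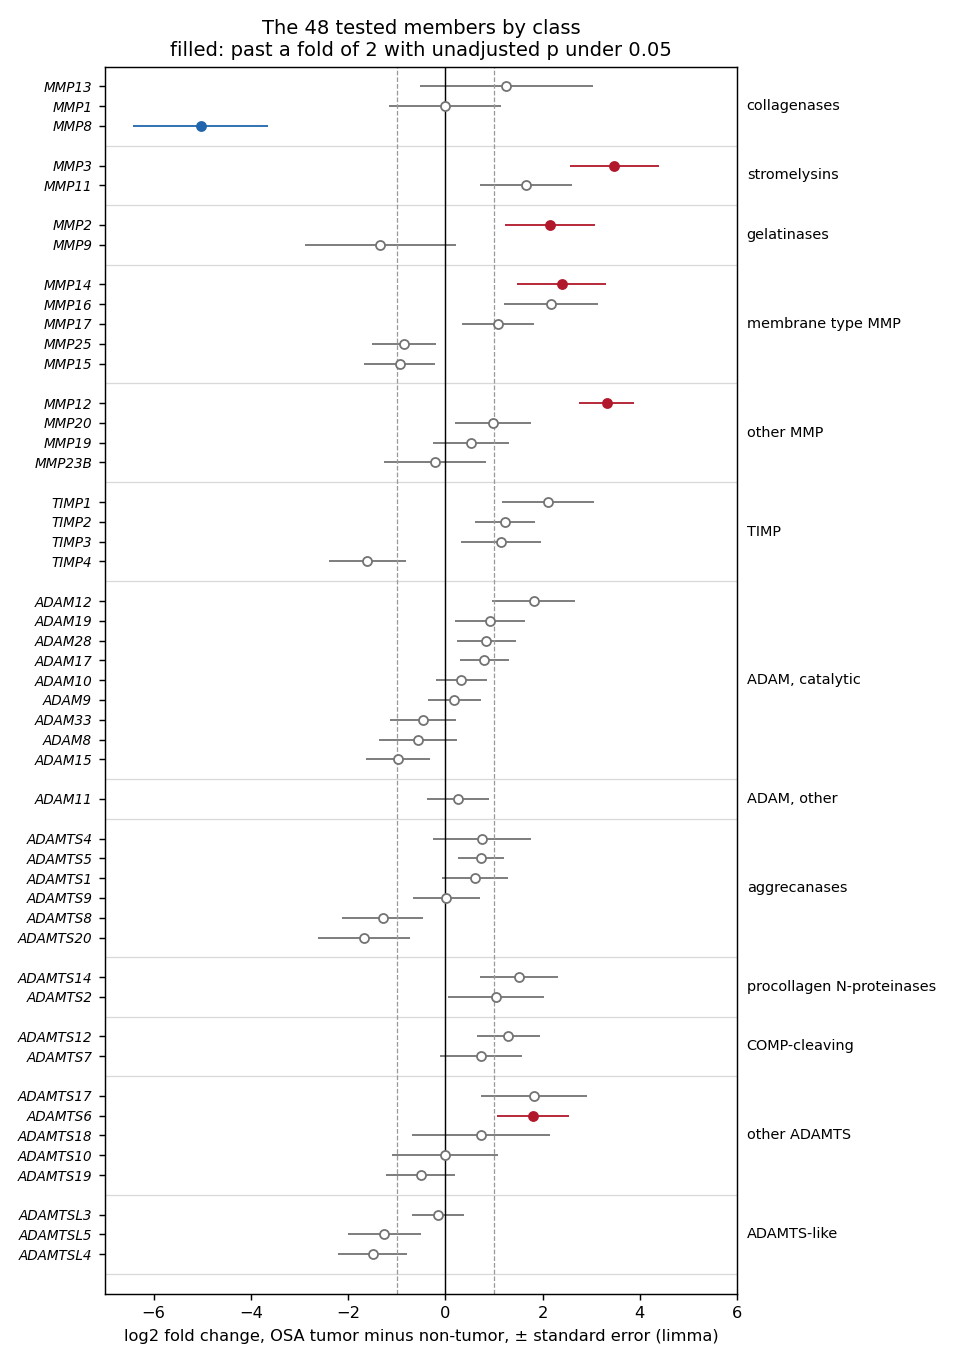
Log2 fold change (OSA tumor minus non-tumor, limma, bars are standard errors) of the 48 tested members by class, with dashed lines at a fold change of 2. Filled symbols passed the limits: *MMP3*, *MMP2*, *MMP14*, *MMP12* and *ADAMTS6* to the right, *MMP8* to the left at -5.03.

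Of the 3 collagenases, *MMP8* fell and the others did not pass. *MMP8* (ENSCAFG00000023335, chromosome 5 from 29036375 to 29047439 of CanFam3.1), the neutrophil collagenase stored in granules, was at 7.14, 635, 312 and 23.97 FPKM in N1, N3, N8 and N9 and at 0.286, 4.15 and 1.18 in T1, T3 and T10. The lowest non-tumor sample was above the highest tumor sample. Its log2 fold change was -5.03 ± 1.39 (SE; 95% confidence interval -8.16 to -1.91), with p = 0.00523 by limma (adjusted p = 0.693, exact permutation p = 0.0571), and it passed in each of the 7 fits without 1 sample, between -6.13 (without N1) and -4.03 (without N3). The order of *MMP8* among the non-tumor samples, N3 above N8 above N9 above N1, was also that of the granulocyte list, which was at 9.76 in N3, 9.63 in N8, 5.36 in N9 and 3.86 in N1 (mean log2) and the order T3 above T10 above T1 was shared as well (3.88, 3.63 and 1.19). Of the markers that define granulocytes, *CTSG* was at 6.88, 1432, 2222 and 41.8 FPKM in N1, N3, N8 and N9 and at 0.173, 5.12 and 0 in the tumor samples. *CTSG* did not follow the order of *MMP8*, as N8 lay above N3 and T1 above T10. Nor did *CXCR2*, at 7.44 FPKM in T10, beside 0.138 in N1 and 1.14 in N9. *CSF3R* departed from it as well, at 17.6 FPKM in T10, beside 2.06 in N1 and 2.64 in N9. The part of granulocytes in the lower *MMP8* was not tested.

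*MMP13* (ENSCAFG00000015043, chromosome 5 from 28853642 to 28864897), the collagenase of hypertrophic cartilage and osteoblasts, reached the highest level of any MMP. It was at 1681, 322, 11.1 and 42.1 FPKM in N1, N3, N8 and N9 and at 2649, 262 and 41.3 in T1, T3 and T10. Both groups spanned a wide range, and T1 alone held 89.7% of the tumor sum and N1 81.7% of the non-tumor sum. Its log2 fold change of 1.25 ± 1.78 did not pass (exact permutation p = 0.629), the interval reached from -2.75 to 5.25, and without T1 the sign turned (-0.30). *MMP1*, the interstitial collagenase, was at 33.9, 12.2, 18.1 and 2.01 FPKM in the non-tumor and 50.1, 19.9 and 0.946 in the tumor samples. These groups overlapped throughout, the log2 fold change was -0.0012 ± 1.15 with an interval of -2.58 to 2.58, and its sign turned with the scaling of the samples and with 4 of the 7 samples left out.

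**Figure D2:**
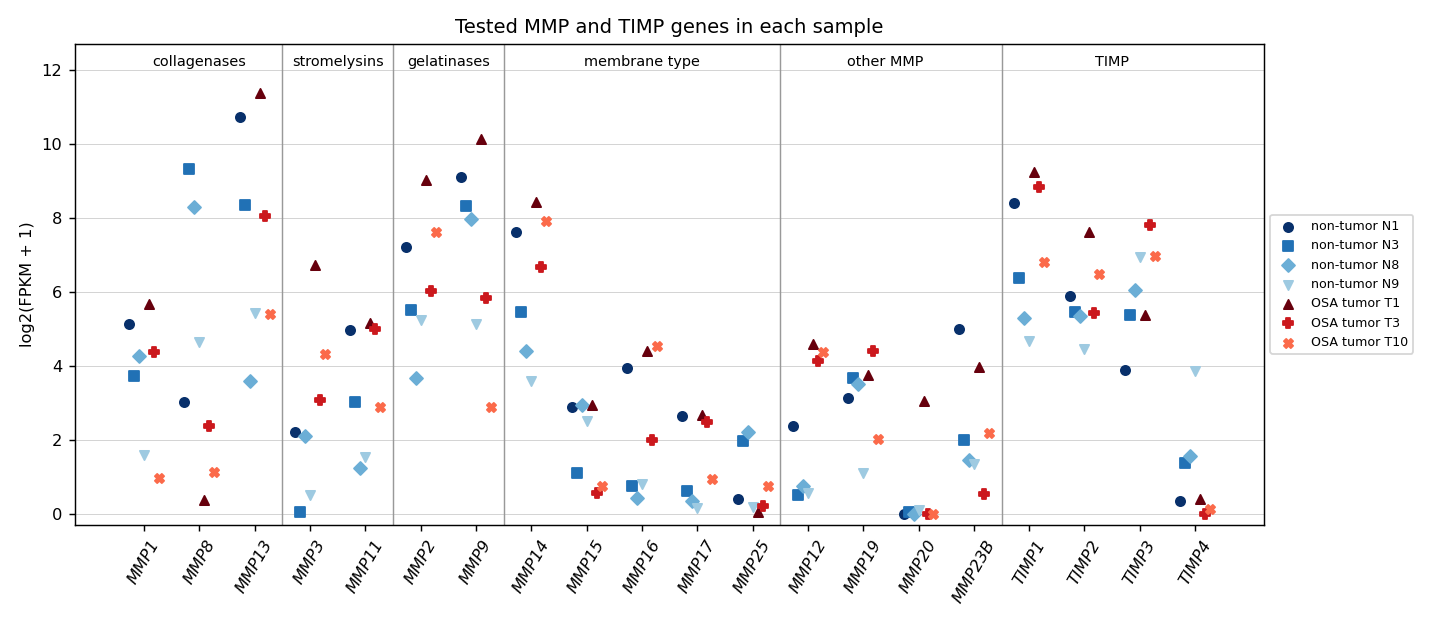
Level of the 20 tested MMP and TIMP genes in each sample as log2(FPKM + 1), grouped by class; blue symbols are the 4 non-tumor and red symbols the 3 OSA tumor samples. All 3 tumor samples lie above the non-tumor samples in *MMP3* and *MMP12* and below them in *MMP8*, while *MMP13* and *MMP9* range widely in both groups.

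Among the stromelysins, *MMP3* (ENSCAFG00000015063, chromosome 5 from 28949631 to 28957915) rose. Stromelysin-1, its product, cuts proteoglycans and activates other MMP precursors. It was at 3.66, 0.0344, 3.29 and 0.426 FPKM in N1, N3, N8 and N9 and at 104, 7.38 and 18.8 in T1, T3 and T10. The ratio between the group means was 23.5, with 79.9% of the tumor sum in T1, and without both N1 and T1 the log2 fold change was 2.80 (3.48 ± 0.91 with all samples, limma p = 0.00373, exact permutation p = 0.0571). *MMP3* passed in each of the fits without 1 sample, from 2.47 (without T1) to 4.29 (without T3). *MMP11*, stromelysin-3, was at 30.1, 7.17, 1.36 and 1.91 FPKM in the non-tumor and 34.9, 31.1 and 6.36 in the tumor samples. N1 reached the level of T1 and T3, and the log2 fold change of 1.66 ± 0.95 did not pass (exact permutation p = 0.229). Without N1 it was 2.41 and passed, and the groups then overlapped in T10 and N3 alone.

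Of the gelatinases, *MMP2* rose and *MMP9* did not pass. *MMP2* (ENSCAFG00000009421, chromosome 2 from 60470871 to 60494082), gelatinase A of mesenchymal cells, was at 146, 44.4, 11.7 and 37.1 FPKM in N1, N3, N8 and N9 and at 523, 63.7 and 197 in T1, T3 and T10. Every tumor sample was above N3, N8 and N9, and N1 lay above T3. Its log2 fold change was 2.15 ± 0.92 (limma p = 0.0431, exact permutation p = 0.114). The call rested on few samples. It was lost without N3 (2.19), N8 (1.57), N9 (2.10), T1 (1.42) or T10 (2.12) and held without N1 (2.75) or T3 (2.93), and it held with both N1 and T1 left out (2.01). With all samples it was also lost without a filter, under quantile normalization (2.27) and with the sample number as a fixed block (1.17). *MMP9*, gelatinase B of osteoclasts and neutrophils, was at 550, 322, 248 and 33.9 FPKM in the non-tumor and 1125, 56.4 and 6.44 in the tumor samples. T1 was the highest of all samples and T10 the lowest. For *MMP9* the log2 fold change was -1.34 ± 1.55 (exact permutation p = 0.514, interval -4.83 to 2.15) and depended on single samples: without T1 it was -3.26 and passed, and without T10 it was 0.36. The osteoclast list was highest in T1 and N1 (5.82 and 4.98) and lowest in T10 (2.36), and the granulocyte list highest in N3 and N8. The part of either cell type in *MMP9* was not tested.

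Of the 5 tested membrane type MMPs, *MMP14* rose and the other 4 did not pass. *MMP14* (ENSCAFG00000011197, chromosome 8 from 3183393 to 3194827), the surface activator of the MMP2 precursor and itself a collagenase, was at 197, 42.7, 20.3 and 11.1 FPKM in N1, N3, N8 and N9 and at 341, 101 and 238 in T1, T3 and T10. N1 lay above T3, and the other non-tumor samples were below every tumor sample. Its log2 fold change was 2.39 ± 0.92 (limma p = 0.0272, exact permutation p = 0.114). The call was lost without N8 (2.11), N9 (1.84), T1 (2.02) or T10 (2.28), and it held without N1 (3.18), without N3 or T3, and without both N1 and T1 (2.80). It was lost with the number as a fixed block (1.01).

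*MMP16*, which codes for another membrane type enzyme with a transmembrane anchor, was at 14.3, 0.673, 0.350 and 0.750 FPKM in the non-tumor and 20.1, 2.97 and 22.4 in the tumor samples. N1 alone overlapped with the tumor samples. Its log2 fold change of 2.17 ± 0.97 was just outside the limit (limma p = 0.0507, exact permutation p = 0.114), and it passed without N1 (2.98) or T3 (2.99). With all samples it also passed at either smaller pseudocount (2.96 and 3.11), with a stricter filter, under each of the 3 other scalings (2.19 to 2.31), with sample weights (2.67) and with the number as a random block (1.73). *MMP15* was at 6.38, 1.16, 6.73 and 4.65 FPKM in the non-tumor and 6.70, 0.485 and 0.681 in the tumor samples, so that T1 stood with the non-tumor samples. The log2 fold change of *MMP15* was -0.94 ± 0.73 (exact permutation p = 0.286), and -1.70 without T1, where it passed. *MMP17* and *MMP25*, both held in the membrane by a lipid anchor, had log2 fold changes of 1.08 and -0.85 (exact permutation p = 0.171 and 0.343). *MMP17* and *MMP25* lie outside the rule for named genes and are given because the class is small.

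*MMP12* (ENSCAFG00000023615, chromosome 5 from 28918694 to 28933474), the macrophage elastase, had the smallest p among the members. The tumor samples were close together at 23.1, 16.7 and 19.6 FPKM in T1, T3 and T10, and N1 was at 4.15 while N3, N8 and N9 were at 0.423, 0.692 and 0.482. T1 held 38.9% of the tumor sum, the lowest share of a top tumor sample among the members that rose. The log2 fold change was 3.32 ± 0.57 (limma p = 0.000214, adjusted p = 0.693, exact permutation p = 0.0571) and stayed between 3.14 and 3.76 in all fits without 1 sample. The macrophage marker list did not follow the same order. It was at 3.76, 5.88, 5.39 and 2.54 (mean log2) in N1, N3, N8 and N9 and at 4.29, 4.18 and 3.91 in T1, T3 and T10, and 0 of its 9 tested genes passed in either direction.

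The other MMPs did not pass. *MMP19*, whose interval is shared with another gene, was at 7.81, 11.8, 10.48 and 1.15 FPKM in the non-tumor and 12.4, 20.0 and 3.07 in the tumor samples, with a log2 fold change of 0.53 ± 0.78. *MMP23B* was at 30.7, 3.01, 1.76 and 1.55 and at 14.8, 0.456 and 3.59 FPKM, so that N1 and T1 held 83.0% and 78.6% of their groups' sums. The tooth enamel protease gene *MMP20* was at 7.22 FPKM in T1 and at most 0.0715 in the other 6 samples. The matrilysin genes *MMP7* and *MMP26* were listed at 0 in all samples.

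A total of 8 MMP genes lie side by side on chromosome 5 between 28853642 and 29196185 of CanFam3.1, a stretch of 343 kb, in the order *MMP13*, *MMP12*, *MMP3*, *MMP1*, *MMP8*, *MMP27*, *MMP20* and *MMP7*. The table lists 2 further genes without a symbol in the stretch. The genes of the row did not share a direction. *MMP12* and *MMP3*, whose starts are 30.9 kb apart, rose, *MMP1* (another 28.8 kb on) was at -0.0012, and *MMP8* (58.0 kb beyond) fell. *MMP13* at the end of the row did not pass. Within the tumor samples the order of *MMP13* (T1 above T3 above T10) was not that of *MMP3* (T1 above T10 above T3). *MMP27* was at 0, 1.63, 0.399 and 0.0557 FPKM in the non-tumor samples and listed at 0 in all tumor samples.

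**Figure D3:**
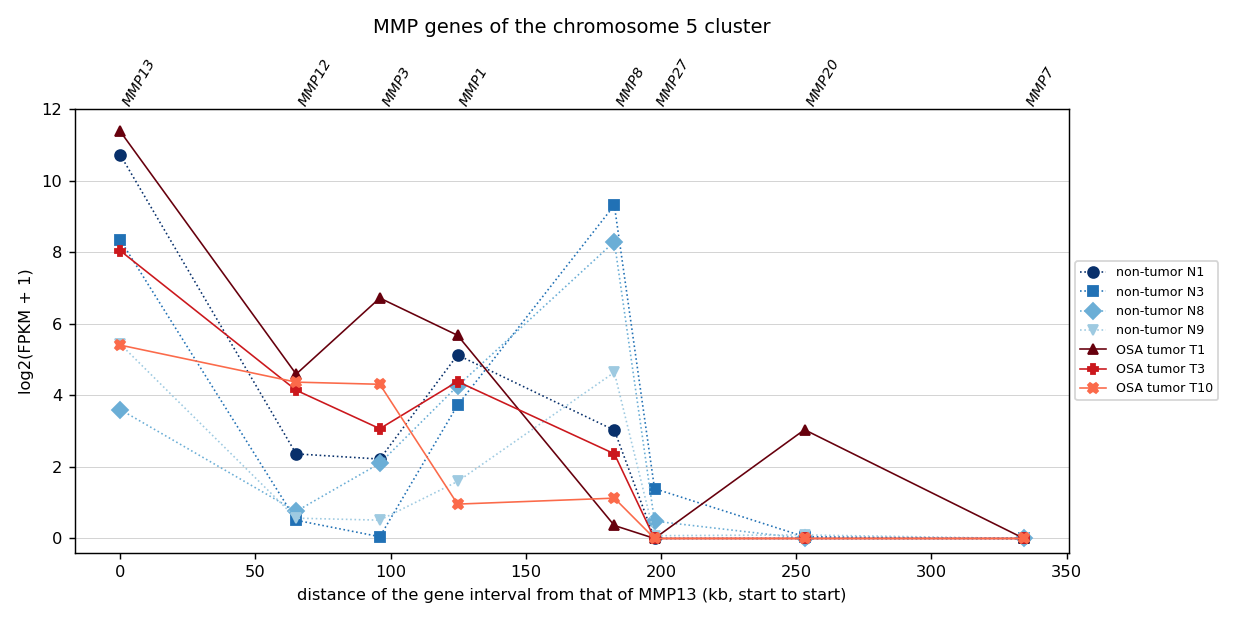
Level as log2(FPKM + 1) of the 8 MMP genes of the chromosome 5 cluster against the distance of each gene's start from that of *MMP13* in kb; lines join the values of 1 sample and carry no meaning between genes (solid, OSA tumor; dotted, non-tumor). Tumor samples lie above at *MMP12* and *MMP3* and below at *MMP8*, 183 kb from *MMP13*.

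Summed over 21 MMP genes, the level was 2720, 1410, 651 and 163 FPKM in N1, N3, N8 and N9 and 4920, 592 and 562 in T1, T3 and T10. The sum therefore overlapped between the groups, with T1 the highest and N9 the lowest sample in FPKM as listed. The FPKM of all genes summed to 539648 in N1 and 1119450 in T1, so the order of N1 and T1 depends on the scaling. The genes that made up the sum differed between samples. *MMP13* held 61.9% of it in N1, 53.9% in T1 and 44.3% in T3, *MMP8* held 45.1% in N3 and 48% in N8, and *MMP14* and *MMP2* together led in T10 with 42.4% and 35.1%. *MMP8* made up 0.00581% to 0.702% in the tumor samples and 0.263% in N1. Collagenase transcripts were thus mostly *MMP8* in N3 and N8 and mostly *MMP13* in the other 5 samples.

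**Figure D4:**
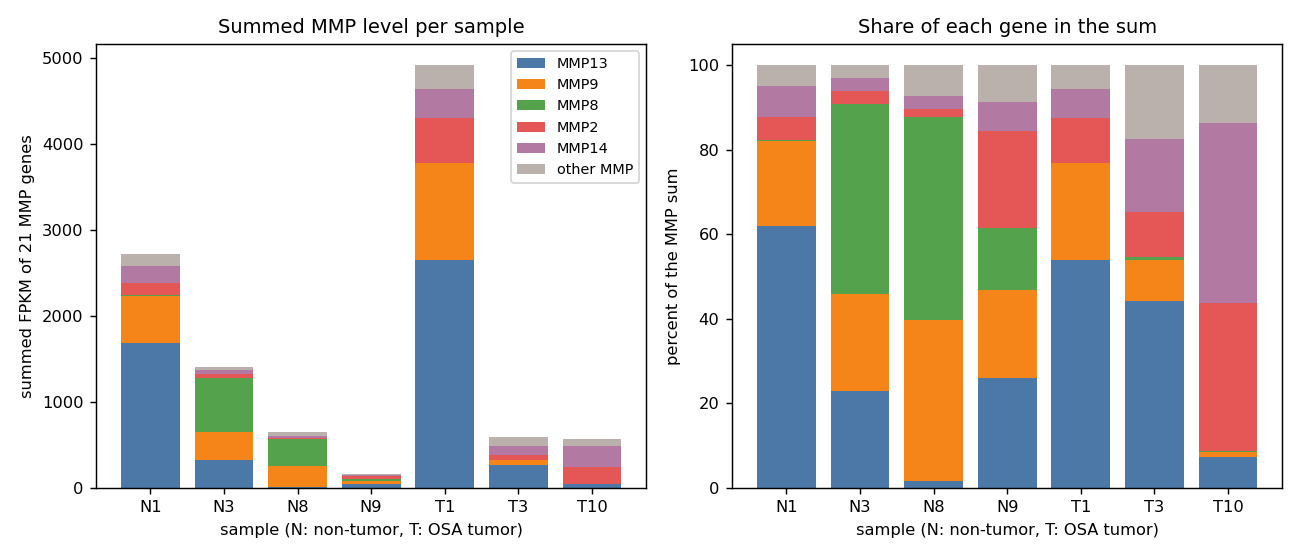
Summed FPKM of 21 MMP genes in each sample (left) and the percent that each of 5 genes contributed (right). *MMP13* is the largest part in N1, N9, T1 and T3, *MMP8* in N3 and N8, and *MMP14* in T10.

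None of the 4 TIMP genes passed with all samples under the main settings, and each of them passed under some other setting or without some sample. *TIMP1* (ENSCAFG00000015155, X chromosome from 41181638 to 41241624, an interval that the table gives to 3 genes) was at 335, 82.3, 37.9 and 24.7 FPKM in N1, N3, N8 and N9 and at 602, 453 and 112 in T1, T3 and T10. T10 was below N1 and above the other non-tumor samples. The log2 fold change of *TIMP1* was 2.11 ± 0.95 (limma p = 0.0518, exact permutation p = 0.114), and it passed without N1 (2.85) or T10 (2.85). It also passed with all samples at either smaller pseudocount (2.13), with a stricter filter (2.11), with FPKM rescaled to the same sum (2.30), with sample weights (2.20) and with the number as a random block (1.92 on the log2 scale). *TIMP2*, which also takes part in the activation of the MMP2 precursor, was at 58.4, 43.2, 40.0 and 21.0 FPKM in the non-tumor and 195, 42.4 and 89.1 in the tumor samples. T3 lay within the non-tumor range, and the log2 fold change of 1.22 ± 0.62 (exact permutation p = 0.171) was 1.76 without T3, where it passed.

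*TIMP3*, the matrix-bound inhibitor that also blocks ADAM17 and the aggrecanases, was at 13.9, 40.4, 65.4 and 121 FPKM in the non-tumor and 40.2, 225 and 123 in the tumor samples. Its order among the samples was unlike that of *TIMP1*, with N1 the lowest sample. For *TIMP3* the log2 fold change was 1.15 ± 0.82 (exact permutation p = 0.286, interval -0.69 to 2.98), and it passed with the number as a fixed (1.96) or random block (1.44). *TIMP4* was at 0.267, 1.60, 1.97 and 13.45 FPKM in the non-tumor samples and at 0.332, 0 and 0.0933 in the tumor samples, with a log2 fold change of -1.61 ± 0.79 (exact permutation p = 0.114) that passed without N1 (-2.09) and with all samples at pseudocounts of 0.1 (-3.33) and 0.01 (-4.71). *TIMP4* reached the limit for testing through the non-tumor samples alone. It was highest in N9, where skeletal muscle markers were also high (9.98, mean log2), though they were higher still in N8 (11), and the part of muscle in *TIMP4* was not tested.

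The balance between the summed MMP and the summed TIMP levels did not separate the groups. The ratio was 6.67, 8.41, 4.48 and 0.901 in N1, N3, N8 and N9 and 5.87, 0.822 and 1.73 in T1, T3 and T10. *MMP14* relative to *TIMP2* was 3.36, 0.988, 0.508 and 0.530 in the non-tumor and 1.75, 2.39 and 2.68 in the tumor samples, again with N1 apart from the other non-tumor samples. These are ratios of levels and were not tested.

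None of the 10 tested ADAM genes passed with all samples under the main settings. Levels of the widely expressed sheddase gene *ADAM10* were 9.41, 21.7, 16.1 and 14.9 FPKM in the non-tumor and 17.6, 10.99 and 34.7 in the tumor samples, and its log2 fold change was 0.33 ± 0.52. *ADAM9* was at 11.9, 20.2, 14.9 and 46.0 and at 18.0, 26.8 and 25.9 FPKM, with 0.19 ± 0.54. *ADAM19*, a gene of mesenchymal cells, was at 29.6, 22.6, 7.43 and 5.13 and at 39.9, 10.8 and 37.4 FPKM, with 0.93 ± 0.72 (exact permutation p = 0.286). In each of these genes the groups overlapped. *ADAM11*, which lacks the catalytic site, was at 4.93, 1.03, 0.334 and 0.374 and at 1.43, 2.36 and 1.11 FPKM, with N1 the highest sample (0.25 ± 0.64). The remaining 6 ADAM genes, *ADAM17* among them, lay between -0.97 and 1.81. The upper end of that range was *ADAM12* (exact permutation p = 0.114), given here after its values were seen, which reached 2.39 and passed without N1. It also passed with all samples under quantile normalization, sample weights or the number as a random block.

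Among the 6 tested aggrecanases 0 rose and 0 fell. *ADAMTS4*, in an interval shared by 3 genes, was at 14.1, 1.53, 2.24 and 0.237 FPKM in N1, N3, N8 and N9 and at 19.7, 0.703 and 4.92 in T1, T3 and T10. N1 and T1 held 77.9% and 77.8% of their groups' sums, and the log2 fold change was 0.75 ± 1.01 (exact permutation p = 0.571), with -0.15 without T1. *ADAMTS5*, the other main aggrecanase of cartilage, was at 3.28, 1.52, 1.17 and 2.52 FPKM in the non-tumor and 4.36, 4.31 and 3.35 in the tumor samples. All tumor samples lay above all non-tumor samples, with T10 just above N1. The log2 fold change of 0.73 ± 0.47 met neither the fold limit nor the p limit (limma p = 0.159, exact permutation p = 0.0571). *ADAMTS5* is outside the rule for named genes and was chosen after its values were seen.

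*ADAMTS1* was at 9.97, 5.62, 5.41 and 20.0 FPKM in the non-tumor and 15.4, 32.9 and 5.23 in the tumor samples, with 0.60 ± 0.68 (exact permutation p = 0.571). *ADAMTS20*, a versican protease known from pigment cell development, was at 0.755, 0.328, 1.61 and 23.98 and at 0.0685, 0.213 and 0.0387 FPKM. All tumor samples were below all non-tumor samples, and N9 held 89.9% of the non-tumor sum, through which the gene reached the limit for testing. For *ADAMTS20* the log2 fold change was -1.67 ± 0.95 and -0.73 without N9. It was -3.35 and -4.23 at pseudocounts of 0.1 and 0.01, where it passed.

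The main substrate of the aggrecanases was among the genes that rose. *ACAN*, the aggrecan gene, was at 41.6, 10.1, 2.22 and 4.99 FPKM in the non-tumor and 280, 8.59 and 189 in the tumor samples (log2 fold change 3.03 ± 1.23, exact permutation p = 0.171), with T3 below N1 and N3. *VCAN*, the versican gene, was at 94.8, 82.4, 15.9 and 10.3 and at 74.4, 96.3 and 79.1 FPKM and did not pass (1.25 ± 0.79). Without N1 *VCAN* was at 1.73 and passed. In the list of 20 tested substrates, 3 rose (*ACAN*, *FN1* and *HAPLN1*) and 0 fell, beside 3.28% and 3.58% of all genes tested, with a median log2 fold change of 1.05, beside -0.02. The 20 include *COL1A1*, whose listed values are in doubt, and over the other 19 the median was 1.25. *FN1*, the fibronectin gene, was at 116, 43.4, 14.95 and 26.3 FPKM in the non-tumor and 336, 178 and 230 in the tumor samples (2.63 ± 0.69, exact permutation p = 0.0571). *HAPLN1*, whose product links aggrecan to hyaluronan, was at 10.4, 0.884, 0.0843 and 0.905 and at 67.9, 13.5 and 144 FPKM (4.35 ± 0.96, exact permutation p = 0.0571). The groups did not overlap in *FN1* and *HAPLN1*. *ACAN* and *HAPLN1* are also 2 of the chondrocyte markers above.

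The procollagen N-proteinases remove the amino-terminal propeptide of fibrillar collagens. *ADAMTS2* was at 8.52, 2.69, 1.93 and 1.08 FPKM in the non-tumor and 32.5, 0.497 and 8.76 in the tumor samples, with T3 below all non-tumor samples. For *ADAMTS2* the log2 fold change was 1.04 ± 0.99 (exact permutation p = 0.457), 2.24 without T3, where it passed, and -0.0019 without T1. *ADAMTS14* was at 9.52, 1.79, 0.349 and 0.365 and at 14.8, 4.02 and 4.85 FPKM. N1 alone was above T3 and T10, and the log2 fold change of 1.51 ± 0.80 (exact permutation p = 0.171) became 2.17 and passed without N1. It also passed with sample weights (1.75). *COL1A2*, a chain of their substrate type I procollagen, was at 5931, 450, 46.9 and 148 FPKM in the non-tumor and 9139, 342 and 2285 in the tumor samples (2.37 ± 1.63, exact permutation p = 0.343), which again placed N1 beside T1. Without N1 *COL1A2* was at 3.71 and passed. *COL1A1* was listed at 0 in T1, where *COL1A2* was at 9139 FPKM, so its listed values are not compared here.

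Of the ADAMTS proteases that cut cartilage oligomeric matrix protein, *ADAMTS12* was at 1.66, 0.144, 0.177 and 0.676 FPKM in the non-tumor and 2.497, 0.919 and 7.54 in the tumor samples. The log2 fold change of *ADAMTS12* was 1.30 ± 0.64 (exact permutation p = 0.114), and it passed without N1 (1.56) or T3 (1.80) and with sample weights (1.62). *ADAMTS7* was at 4.98, 0.420, 0.183 and 0.0758 and at 8.52, 0.665 and 0.743 FPKM, so that N1 and T1 held 88.0% and 85.8% of their groups' sums, and the log2 fold change was 0.74 ± 0.84 (exact permutation p = 0.343).

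*ADAMTS6* (ENSCAFG00000007352, chromosome 2 from 50955854 to 51236421, an interval of 2 genes) rose. It is a relative of *ADAMTS10*, a protease of fibrillin microfibrils. *ADAMTS6* was at 1.92, 1.65, 0.170 and 1.29 FPKM in N1, N3, N8 and N9 and at 8.27, 1.36 and 18.2 in T1, T3 and T10. T1 and T10 were above all non-tumor samples, and T3 was within their range. The log2 fold change was 1.81 ± 0.74 (limma p = 0.0355, exact permutation p = 0.171). The call was lost without N3 (1.92), N8 (1.52), N9 (1.85), T1 (1.66) or T10 (1.13) and with both N1 and T1 left out (1.81), and held without N1 (1.96) or T3 (2.65). With all samples it was lost as well without a filter, with FPKM rescaled to the same sum (1.86) and with the number as a fixed block (0.75). *ADAMTS10*, *ADAMTS17* and *ADAMTS18* did not pass. They shared a pattern in which N1 and T1 were far above the other samples: *ADAMTS10* was at 23.1, 3.07, 1.36 and 1.14 FPKM in N1, N3, N8 and N9 and at 22.9, 1.21 and 0.948 in T1, T3 and T10. *ADAMTS17* was at 19.0, 1.36, 0.0175 and 0.743 and at 36.9, 3.07 and 7.002 FPKM in the same order. *ADAMTS18* was at 50.8, 1.59, 0.0178 and 0.220 and at 29.5, 1.20 and 2.16 FPKM. Their log2 fold changes were -0.0071 ± 1.09, 1.83 ± 1.09 and 0.73 ± 1.41, where the sign for *ADAMTS10* turned under 2 other scalings of the samples. *ADAMTS17* passed with sample weights (2.24).

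The ADAMTS-like genes code for matrix proteins without a protease domain. All 3 that were tested had a log2 fold change below 0 and none passed. *ADAMTSL4*, a partner of fibrillin, was at 4.18, 2.57, 3.67 and 17.9 FPKM in the non-tumor and 3.53, 0.859 and 0.362 in the tumor samples (-1.50 ± 0.71, exact permutation p = 0.114), and passed without N3 (-1.77) or T1 (-2), without both N1 and T1 (-2.10), and with all samples at pseudocounts of 0.1 (-2.17) and 0.01 (-2.31). *ADAMTSL5* was at 0.649, 1.67, 5.34 and 8.56 and at 2.87, 0.118 and 0.133 FPKM (-1.25 ± 0.76, exact permutation p = 0.171), and passed without N1 (-1.68), T1 (-1.84) or both (-2.28). *ADAMTSL3* was at 2.05, 1.77, 2.54 and 5.26 and at 2.99, 1.06 and 3.54 FPKM (-0.15 ± 0.53), with the sign turned (0.011) when the FPKM of each sample were rescaled to the same sum. The intervals of *ADAMTSL4* and *ADAMTSL5* hold 2 and 6 genes.

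Without N1, 13 of the 48 members rose, compared to 6.31% of all genes tested, and 4 fell, compared to 8.48%. The 13 were the 5 that rose with all samples together with *TIMP1*, *MMP11*, *MMP16*, *MMP17*, *ADAM12*, *ADAMTS12*, *ADAMTS14* and *ADAMTS17*. The 4 that fell were *MMP8*, *TIMP4*, *ADAMTS8* and *ADAMTSL5*. *TIMP4* and *ADAMTS8* were tested only because of their non-tumor level, and *ADAMTS12* only because of its tumor level, so their directions follow in part from the filter and the counts do not stand as support. *MMP17*, *ADAM12* and *ADAMTS8* are named here after their values were seen. With both N1 and T1 left out, a setting chosen after the data were seen, 10 members rose (background 6.72%) and 4 fell (background 7.3%). *MMP3* (2.80), *MMP12* (3.64), *MMP14* (2.80), *MMP2* (2.01) and *MMP8* (-5.67) passed there too. Of the 7 tumor and non-tumor samples, T1 was the highest in 21 of 48 members and N8 the lowest in 13. The same counts were not made over all genes, so these are not set against a background.

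**Figure D5:**
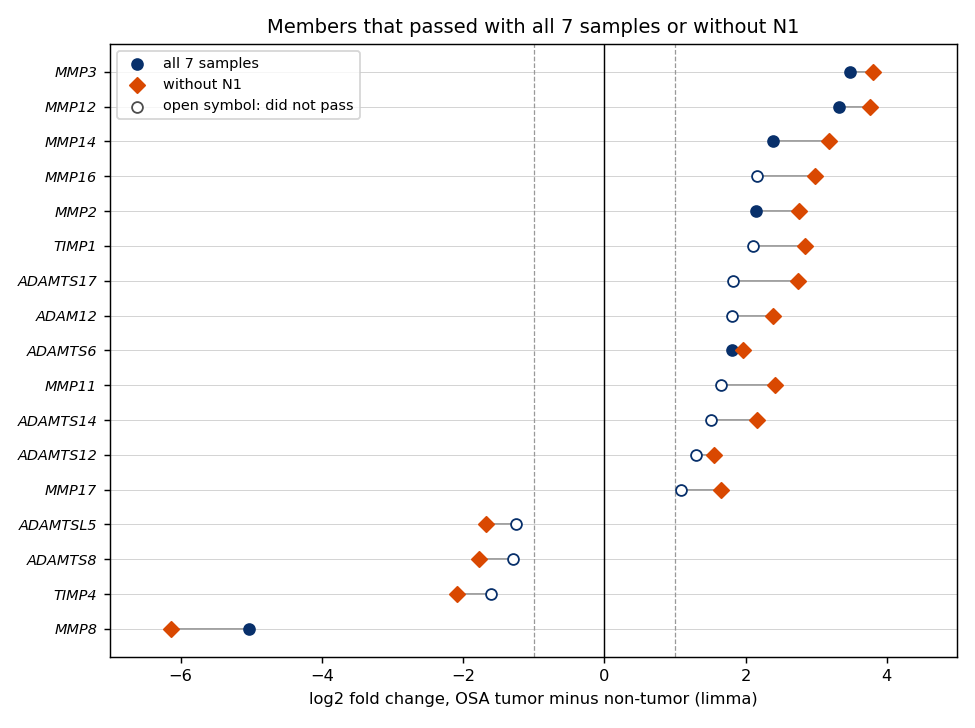
Log2 fold change (OSA tumor minus non-tumor) of the 17 members that passed with all 7 samples (circles) or without N1 (diamonds); open symbols did not pass and dashed lines mark a fold change of 2. All 17 diamonds lie farther from 0 than the circles, with *MMP8* moving from -5.03 to -6.13. Most of the 17 are drawn only because they passed without N1, so this shift follows in part from the choice of members. Over all genes tested, 6.86% passed in either direction with all samples and 14.8% without N1.

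A list of 29 tested genes that regulate these proteases or belong to the same pathways held 2 that rose and 1 that fell, beside 3.28% and 3.58% of all genes tested, with a median log2 fold change of 0.69. *SERPINE2*, a serine protease inhibitor, was at 11.3, 24.3, 12.9 and 4.94 FPKM in the non-tumor and 53.9, 81.9 and 31.3 in the tumor samples (2.06 ± 0.59, exact permutation p = 0.0571), and the groups did not overlap. *SERPINH1*, the collagen chaperone, was at 636, 41.7, 27 and 18.5 and at 933, 384 and 229 FPKM (2.81 ± 1.14, exact permutation p = 0.171), with N1 above T3 and T10. *TSPAN33*, a tetraspanin that binds ADAM10, fell (-2.44 ± 1.05, exact permutation p = 0.114). It was at 3.01, 64.2, 88.0 and 7.89 and at 2.15, 1.83 and 5.86 FPKM, high in N3 and N8 as the granulocyte, erythroid and macrophage lists were. Their part in *TSPAN33* was not tested.

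The 19 members that were not tested included 7 of the 8 ADAM genes without a catalytic site or with a role in germ cells. The level of these 19 genes stayed under 1 FPKM on average. The highest single value among them was 4.2 FPKM (*ADAMTSL2* in T1), and *ADAM22* and *ADAM23* were the nearest to the limit with means of 0.971 and 0.937 FPKM.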

How the data were processed

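RNA from 4 non-tumor bone samples and 3 OSA tumor samples was sequenced with a stranded paired-end library by Illumina HiSeq. Trimming was by Trim Galore and alignment to CanFam3.1 by TopHat, and the authors deposited FPKM per gene and sample from Cuffdiff, without pooling. Versions and scaling between libraries were not given in the sources used here, nor was the strand setting of the counting, so the 20 members in an interval shared with other genes (*TIMP1*, *TIMP3*, *TIMP4* and *ADAMTS6* among them) are uncertain. FPKM scale with depth, so low values are less precise in the shallower libraries, and a listed 0 can be a failed estimate. The authors' second table, of which only gene intervals were used (1 added to each start), holds their own comparison of the groups: FPKM means, fold changes, p-values and q-values.

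Values were taken as log2(FPKM + 1), so fold changes of low genes are understated. The 13507 of 24580 genes whose mean reached 1 FPKM were compared by limma 3.58.1 in R 4.3.3, unpaired, with a mean-variance trend. The limits were those of the study, a 2-fold change and an unadjusted p under 0.05. Adjustment of p-values was by Benjamini-Hochberg over all genes tested. The fit was also run on simulated data drawn independently for each sample, which leaves out the likeness of N1 and T1, and no result rests on it. Exact permutation tests were two-sided (scipy 1.17.1). Members, classes and lists were chosen with earlier results of these data known. Values in every sample are given for members that passed, for all tested collagenases, stromelysins, gelatinases and TIMPs, for the 3 highest members of each other class, and for related genes that passed, with *ACAN*, *VCAN* and *COL1A2*. Symbols matched 34 of 38 regulators (29 tested) and 26 of 27 substrates (20 tested). Marker lists were granulocyte, macrophage, osteoclast, osteoblast, chondrocyte, fibroblast, endothelial, skeletal muscle and erythroid. Alternatives were pseudocounts of 0.1 and 0.01, 2 other filters, 3 other scalings, no trend, sample weights, the sample number as a block, and each sample left out. Sequences were not used here. Figures were drawn with matplotlib 3.10.9.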

Additional observations from a re-analysis of the deposited data

Results flagged for a closer look

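In 3 of the 35 named members, 1 non-tumor sample stood apart from the other 3 by Dixon's ratio (gap to the nearest sample over the range of the group, above the 95% critical value for 4 samples). In each it was N1, the highest of the group. The ratio was 0.893 in *MMP16* (14.3 FPKM in N1), 0.865 in *MMP12* (4.15 FPKM) and 0.838 in *ADAMTS7* (4.98 FPKM). Chance flags about 1 in 20 groups, and the groups of 3 tumor samples were not tested.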

How the results depend on the processing

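With all 7 samples, 5 members rose and 1 fell (3.28% and 3.58% of all genes). The first count became 3 without a filter (2.34% of all genes), 11 with sample weights (6.12%), and 10 with N1 and T1 both left out (6.72%), a setting added after the data were seen. The second became 4 with the pseudocounts of 0.1 (4.32%) and 0.01 (4.38%) and 4 with N1 and T1 left out (7.3%). Leaving out 1 sample gave 2 to 13 members that rose (1.38% to 6.31% of all genes) and 1 to 6 that fell (0.933% to 8.48%). The upper ends were without N1 (6.31%) and without T1 (4.46%), and 10 rose without T3 (3.07%). *MMP3*, *MMP12* and *MMP8* passed in all settings. Rescaling FPKM to the same sum moved the median log2 fold change of all genes from -0.02 to 0.12.

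The numbers 1 and 3 occur in both groups, and the protocol calls the tissue matched, but no label says that a number marks a dog, and with 2 such pairs (correlations of deviations of 0.422 and 0.211) the samples were taken to share only a number. With the number as a random block 9 members rose (3.95% of all genes) and *TIMP1*, *TIMP3*, *MMP16* and *ADAM12* were gained. As a fixed block, which rests on these 4 samples, 3 rose (1.05%): *MMP3* and *MMP12* passed, *MMP14* (1.01), *MMP2* (1.17) and *ADAMTS6* (0.75) were lost and *TIMP3* (1.96) was gained. The fixed block turned *ADAM10* (-0.042), *ADAM11* (-0.28), *ADAM19* (-0.29), *ADAMTS4* (-0.060), *ADAMTS18* (-0.50) and *MMP1* (0.61), and the random block *MMP1* (0.15).

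Among members that did not pass, other signs turned as well. *MMP1* was at 0.044 with the same sum, 0.020 with the median ratio and 0.080 with quantile normalization. *ADAMTS10* was at 0.0064 with the median ratio, 0.13 with quantile normalization and 0.090 with sample weights. *ADAMTSL3* was at 0.011 with the same sum and *MMP23B* at 0.081 with sample weights. With 1 sample left out, the log2 fold change ranged from -0.094 to 0.69 in *ADAM10*, -0.051 to 0.57 in *ADAM9*, -0.0019 to 2.24 in *ADAMTS2*, -0.15 to 1.65 in *ADAMTS4*, -0.090 to 1.31 in *ADAMTS7*, -1.18 to 0.78 in *ADAMTS10*, -0.44 to 2.02 in *ADAMTS18*, -0.37 to 0.20 in *ADAMTSL3*, -1.002 to 1.36 in *MMP1*, -3.26 to 0.36 in *MMP9*, -0.30 to 2.68 in *MMP13*, -0.06 to 1.21 in *MMP19* and -1.08 to 0.64 in *MMP23B*. The causes were not tested. Depth limits the lowest members most, and that of N8 and N9 is known only up to a factor of 2.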

Other observations

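Other genes of the pericellular protease system, chosen after their values were seen, fell into separate patterns. *PLAU*, the urokinase gene, was at 5.85, 10.3, 6.36 and 9.61 FPKM in N1, N3, N8 and N9 and at 14.9, 16.3 and 13.2 in T1, T3 and T10, so that all tumor samples lay above all non-tumor samples, but its log2 fold change of 0.84 ± 0.43 was under the limit. *TFPI2*, an inhibitor of plasmin and other serine proteases, was at 148, 3.09, 2.38 and 3.85 FPKM in the non-tumor and 158, 21.2 and 117 in the tumor samples (2.90 ± 1.31 with all samples and 4.2 without N1). *PCOLCE*, an enhancer of procollagen C-proteinase, was at 1276, 66.0, 25.8 and 24.8 and at 1526, 253 and 251 FPKM. In *TFPI2* and *PCOLCE* the other 3 non-tumor samples were below all tumor samples and N1 was not.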
